A study of Homo sapiens with 16 samples.

Results

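The genes described here encode the semaphorin, ephrin and netrin axon guidance cues and their receptors in SH-SY5Y, a human neuroblastoma cell line. They were chosen by symbol, from protein-coding genes whose names begin with SEMA, PLXNA to PLXND, EPHA, EPHB, EFNA, EFNB, NTN or UNC5, together with NRP1, NRP2, DCC and NEO1, and 61 of the 26410 genes in the count data met this rule. They comprised 20 semaphorins, 9 plexins, 2 neuropilins, 8 ephrins, 8 Eph receptors, 6 netrins and 6 netrin receptors, while UNC50 and UNC5CL met the rule by name and UNC50 is not a netrin receptor. EPHA1, EPHA3, EPHA4, EPHA5, EPHA7 and EPHB6 were not analysed here.

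Poly(A) RNA came from 4 single-cell clones that had been edited with CRISPR and selected with puromycin. Clones KO11 and KO28 received a guide to TRPM2, an ion channel, and clones Scr13 and Scr16 a scrambled guide, and both genotypes were given the same donor vector, with GFP and puromycin resistance between arms homologous to TRPM2. Each clone was sequenced in duplicate untreated and after 24 h with doxorubicin, a chemotherapy drug that damages DNA, so that each of the 4 groups had 4 libraries from 2 clones. The doxorubicin concentration was 0.3 µM by the sample protocols and the study's account of this experiment, while the description of the whole series gives 3 µM. Since both libraries of a clone share that clone, a difference between genotypes cannot be told apart from a difference between single clones beyond what 2 clones of each show.

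Axon guidance cues bind receptors on growing nerve fibres and change the cytoskeleton beneath the membrane. Semaphorins act through plexins, and the secreted class 3 semaphorins mostly need a neuropilin as a co-receptor. Ephrins are held on the cell surface and bind Eph receptor tyrosine kinases on the neighbouring cell, and netrins attract through DCC and neogenin or repel through the UNC5 receptors. In the sympathetic nervous system, from which neuroblastoma arises, the same families steer neural crest cells and sympathetic axons.

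The libraries held from 10481177 to 25086085 reads on genes (median 16037366.5), and expression is given as read counts scaled to a common library size (normalized CPM). A count of 0 allows up to 3 reads, a floor of 0.118 to 0.285 normalized CPM depending on the library, for counting error alone.

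TRPM2 itself was examined first. Without treatment it had 1.93 and 2.23 normalized CPM in KO11, 1.41 and 2.19 in KO28, 0.118 and 0.115 in Scr13 and 0 in both libraries of Scr16. With doxorubicin the values were 1.22 and 1.83 in KO11, 1.37 and 0.658 in KO28, 0.0594 and 0.0631 in Scr13, and 1.33 and 0.390 in Scr16. Without treatment, KO11 and KO28 thus had more TRPM2 reads than Scr13 and Scr16, and the groups overlapped with doxorubicin. By the study's methods the edit removed the DNA for the start of the protein and shifted the reading frame of the rest. Reads from anywhere in the gene were summed, so they do not check the edit or the label, and all directions are given for the libraries labelled TRPM2 KO. CDKN1A, the p53 target p21 that halts the cell cycle after DNA damage, was at 57.0 ± 15.2 normalized CPM (SD, n = 4) in the untreated Scr libraries and 337 ± 25.1 with doxorubicin, and at 136 ± 16.5 and 736 ± 45.3 in the libraries labelled TRPM2 KO. MDM2, which degrades p53, averaged 105 and 196 normalized CPM in the Scr libraries and 129 and 324 in those labelled TRPM2 KO, so both genes were higher in the treated groups. CDKN1A was also higher in the libraries labelled TRPM2 KO than in the Scr libraries in both treatments (log2 fold change 1.27 and 1.12, adjusted p = 3.36e-06 and 1.98e-09, limma).

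Markers of adrenergic neuroblastoma, 14 genes that include HAND2 and DBH, were expressed in every group, and their sum lay between 7951 and 9425 normalized CPM, with STMN2 the most abundant in the list. TH, which makes the catecholamine precursor, was near the floor, and 6 libraries had 0 reads of it. Of 15 mesenchymal or fibroblast-like markers, 14 were measured, with VIM the most abundant. Their sum was 900, 430, 552 and 592 normalized CPM in the untreated libraries of Scr13 replicate 1, Scr13 replicate 2, Scr16 replicate 1 and Scr16 replicate 2, and 983, 859, 1163 and 1061 in KO11 and KO28 in the same order. With doxorubicin it was 542, 451, 743 and 618 in the Scr libraries and 1149, 899, 1246 and 1040.5 in those labelled TRPM2 KO. Untreated Scr13 replicate 1 thus stood apart from the other Scr libraries and reached the range of the libraries labelled TRPM2 KO. Of 6 Schwann-like markers, 4 were measured, and they summed to at most 5.87 normalized CPM in any library, with S100B at 0 reads in 7 libraries.

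**Figure D1:**
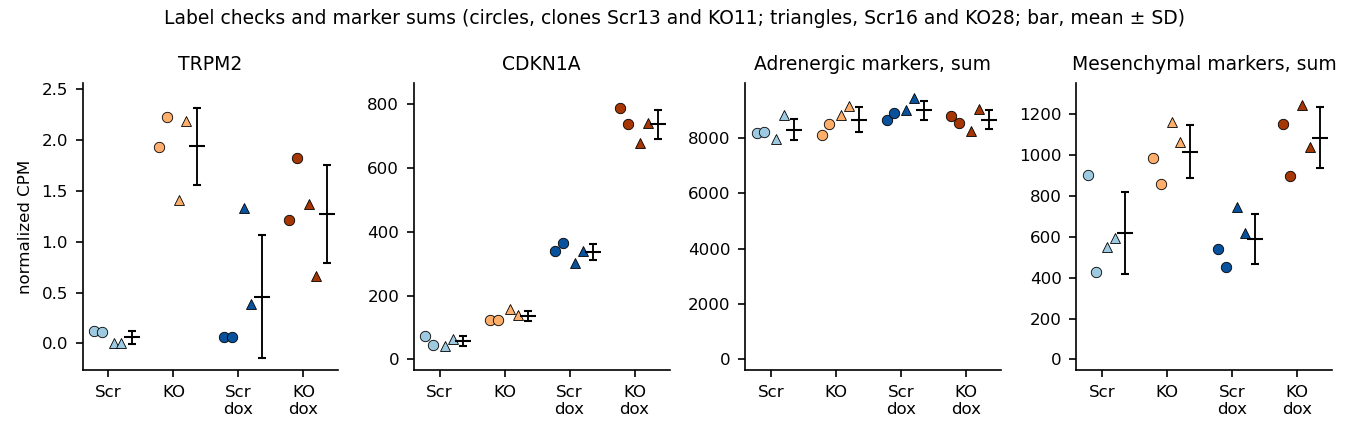
Normalized CPM of TRPM2 and CDKN1A and the summed normalized CPM of the adrenergic and mesenchymal markers in each of the 16 libraries, by genotype label and treatment (dox, doxorubicin). TRPM2 is at or under 0.118 in the 4 untreated Scr libraries and between 1.41 and 2.23 in untreated KO11 and KO28, and untreated Scr13 replicate 1 has the highest mesenchymal sum of the Scr libraries.

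Most of the guidance genes were expressed in these cells. Of the 61, 44 reached 1 normalized CPM in every library, 14 in some libraries and 3 (NTN1, NTN5 and SEMA3G) in none, and 0 stayed at or under the floor throughout. Levels of different genes are compared only per kb of exon, averaged over the 16 libraries. On this scale the netrin receptor UNC5B was highest of all, at 99.1 normalized CPM per kb. It was followed by PLXNB2 at 69.7 and PLXNA2 at 53.0, receptors of semaphorins. In total, 14 genes averaged at least 10 normalized CPM per kb and 18 averaged under 1.

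Per kb, 4 of the 6 netrin receptors were higher than any netrin. UNC5B, UNC5A at 31.8 and UNC5C at 31.6 normalized CPM per kb stood with neogenin, NEO1, at 22.9, whereas the attractive receptor DCC was at 0.186 and UNC5D at 0.268. UNC5B varied little between libraries, from 561 to 764 normalized CPM, and UNC5C ranged from 282 to 390. Among the ligands, NTN3 was highest with 7.64 normalized CPM per kb. NTN1, the founding member of the family, had 0 reads in 13 libraries, including all 8 untreated ones. In the doxorubicin-treated libraries labelled TRPM2 KO, NTN1 had 0.448 and 0.126 normalized CPM in KO11 and 0.262 and 0 in KO28.

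All 9 plexins were above 1 normalized CPM in every library. NRP1 and NRP2, the co-receptors that class 3 semaphorins use, were low, at 1.29 and 0.242 normalized CPM per kb. Among the semaphorins, the secreted SEMA3C was highest at 13.4, and SEMA3E, also secreted, was lowest at 0.0288, with 0 reads in 10 libraries. EFNB3, a transmembrane ephrin, led the ephrins at 33.7 and was nearly constant, between 100.5 and 121 normalized CPM in the 16 libraries. Of the Eph receptors, EPHA2 was highest at 11.2 and EPHB1 lowest at 0.0424, at or under the floor in 9 libraries. UNC50 was at 8.52 normalized CPM per kb and UNC5CL, a relative of the UNC5 receptors, at 0.247.

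**Figure D2:**
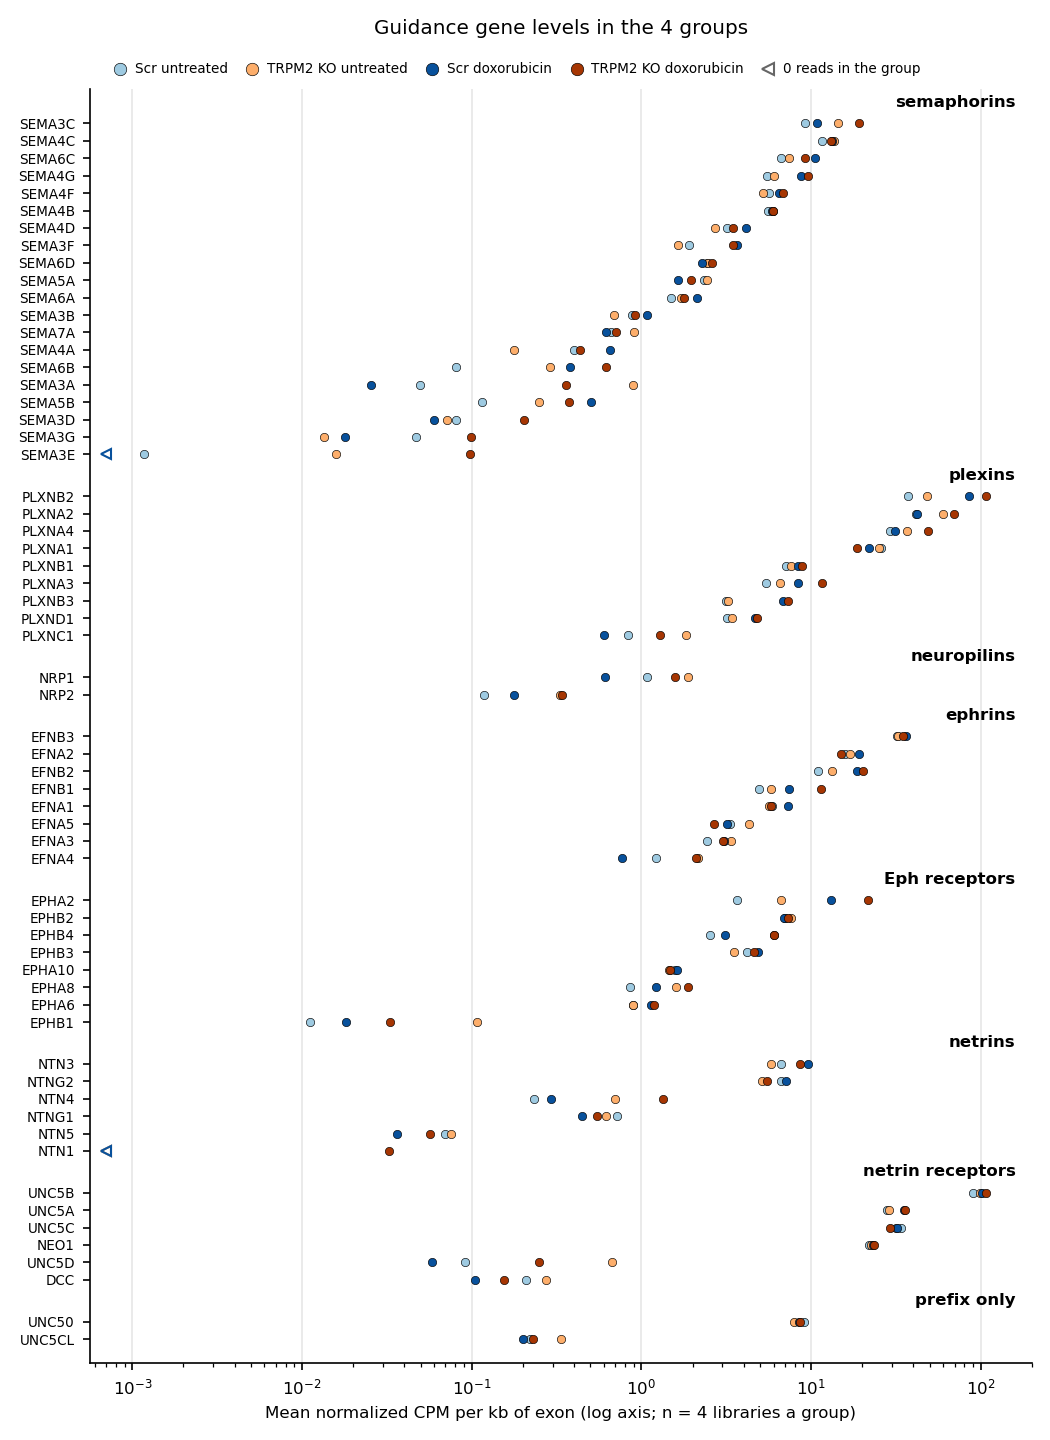
Mean normalized CPM per kb of exon (log axis) for each of the 61 genes in the 4 groups, with the genes grouped by role and ordered by level and open triangles for groups with 0 reads. The receptors UNC5A, UNC5B, UNC5C and NEO1 lie in the upper range. Plexins reach from PLXNB2 at 69.7 down to PLXNC1 at 1.14 normalized CPM per kb, averaged over the 16 libraries. SEMA3A, PLXNC1, UNC5D, NTN4 and EPHA2 are among the genes whose groups lie apart.

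The first comparison asked which of these genes differed between genotypes without treatment. Of the 61, 54 passed the filter on low values and were tested with limma. In the libraries labelled TRPM2 KO, 11 were higher and 0 lower at an adjusted p under 0.05, where 2.3% of all genes tested were higher and 2.54% lower. At an unadjusted p under 0.05, limma had 3 of them lower, and edgeR's quasi-likelihood test and DESeq2 each had 2, with 0 lower after adjustment in either. On reads summed per clone, which makes the clone the replicate, edgeR called 10, of which 9 were among the 11, and NRP2 and EPHA8 lost their calls. The median log2 fold change of the 54 was 0.13, against -0.0073 over all genes tested. The genes called were 1 semaphorin, 2 neuropilins, 4 plexins, 3 Eph receptors and 1 netrin receptor, and none of the ephrins and netrins. Groups did not overlap for 10 of the 54, all higher in the libraries labelled TRPM2 KO, and this held for 9.29% of all genes tested, in either direction. In bulk RNA such a difference can come from more cells that express a gene or from more RNA per cell, and these cannot be told apart.

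SEMA3A, a secreted semaphorin that repels axons through NRP1 and A-type plexins, was nearly absent from the Scr libraries. It had 12.9 and 9.52 normalized CPM in untreated KO11 and 4.09 and 6.78 in KO28, and 0.433, 0.403, 0.859 and 0.170 in the libraries of Scr13 and Scr16. Every library labelled TRPM2 KO was above every Scr library, and KO11 was above KO28. Since it reached 1 normalized CPM in the libraries labelled TRPM2 KO alone, SEMA3A could enter the limma fit only if it was higher there, so its place among the 11 is no support. Its mean was 17.8-fold higher, which is given as a description with no test. SEMA3A (ENSG00000075213) is a - strand gene of chromosome 7 (GRCh38), spanning 83955777 to 84492724, a chromosome that also carries SEMA3C, SEMA3D and SEMA3E. SEMA3C, from 80742538 to 80922359, averaged 90.1 ± 18.9 normalized CPM (SD, n = 4) against 57.3 ± 26.6, and this difference did not pass the test (log2 fold change 0.75, adjusted p = 0.0739, limma). The Scr libraries of SEMA3C were spread from 25.9 in Scr13 replicate 2 to 91.0 in Scr13 replicate 1, the library with the high mesenchymal sum.

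Of the neuropilins and the A-type plexins, NRP1, NRP2, PLXNA2 and PLXNA4 were called, while PLXNA1 and PLXNA3 were not (adjusted p = 0.941 and 0.12, limma). NRP1 (ENSG00000099250; chromosome 10, 33177492 to 33336262) had 21.1, 16.0, 25.8 and 24.1 normalized CPM in KO11 and KO28 and 14.5, 12.6, 13.2 and 9.43 in Scr13 and Scr16. The groups did not overlap, and the closest values were 16.0 in KO11 and 14.5 in Scr13. Its log2 fold change was 0.76 (SE 0.17, adjusted p = 0.00912, limma), and without clone KO28 or clone Scr16 the adjusted p was 0.151 and 0.159. NRP2, the co-receptor of SEMA3F, averaged 4.60 ± 1.33 (SD, n = 4) against 1.64 ± 1.15 normalized CPM, and the groups overlapped at 3.27 in Scr13 replicate 1 (log2 fold change 1.15, adjusted p = 0.0210, limma). The call of NRP2 was lost without either library of KO11, without Scr13 replicate 2 or without Scr16 replicate 1, with adjusted p between 0.0623 and 0.0886 (limma), and edgeR's quasi-likelihood test gave 0.0706, and 0.119 on reads summed per clone.

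Of the plexins, PLXNC1, the receptor of SEMA7A, changed most. It was at 22.0 and 19.3 normalized CPM in KO11 and 13.6 and 17.4 in KO28, and at 8.15, 8.18, 8.47 and 8.35 in the Scr libraries. The Scr libraries were nearly equal, and the lowest library labelled TRPM2 KO was well above them. This was a log2 fold change of 1.02 (SE 0.17, adjusted p = 4.7e-04, limma). PLXNA2 averaged 824 ± 74.5 normalized CPM (SD, n = 4) against 568 ± 101, PLXNA4 603 ± 48.7 against 479 ± 40.4, and PLXNB2, a receptor of class 4 semaphorins, 351 ± 27.0 against 271 ± 18.4. For these abundant plexins the groups did not overlap, with log2 fold changes of 0.55, 0.33 and 0.37 (adjusted p = 0.00102, 0.00804 and 0.00269, limma). Without clone Scr16, PLXNA4 and PLXNB2 did not pass the test (adjusted p = 0.167 and 0.0818, limma). PLXNC1 overlaps CEP83 on the opposite strand of chromosome 12, and CEP83 had a log2 fold change of 0.02 (adjusted p = 0.980, limma).

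EPHB4, the receptor of ephrin-B2, had 44.2 and 34.0 normalized CPM in KO11 and 42.6 and 33.6 in KO28, and 17.9, 13.5, 14.7 and 19.3 in Scr13 and Scr16. Both clones labelled TRPM2 KO were equally high, and no Scr library reached 20. Its log2 fold change of 1.19 (SE 0.14, adjusted p = 1.11e-05, limma) kept its call under all 22 alternatives. EPHB4 (ENSG00000196411) lies on chromosome 7 from 100802565 to 100827521 and overlaps SLC12A9 on the opposite strand, and SLC12A9, with a log2 fold change of -0.08 (adjusted p = 0.871, limma), did not pass the test. EPHA2, a receptor of ephrin-A1, averaged 27.6 ± 3.35 normalized CPM (SD, n = 4) against 15.2 ± 3.68 (log2 fold change 0.84, adjusted p = 0.00209, limma), and without clone Scr13 the adjusted p was 0.0579. EPHA8, a receptor of A-type ephrins, averaged 8.55 ± 1.87 against 4.59 ± 0.984 normalized CPM (log2 fold change 0.77, adjusted p = 0.0361, limma). The call of EPHA8 was lost when KO11 replicate 2, Scr13 replicate 2, Scr16 replicate 1 or either library of KO28 was left out, with adjusted p between 0.0653 and 0.122 (limma), and on reads summed per clone edgeR gave 0.10.

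UNC5D, a low member of the UNC5 netrin receptors that also binds FLRT proteins, had 11.5 and 6.69 normalized CPM in KO11 and 4.02 and 6.86 in KO28. In the Scr libraries it had 1.42 and 0.173 in Scr13 and 0.614 and 1.76 in Scr16. The groups did not overlap, and the log2 fold change was 2.06 (SE 0.31, adjusted p = 1.69e-04, limma). The abundant receptors UNC5A, UNC5B, UNC5C and NEO1 were not among the genes called.

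With doxorubicin, 55 of the 61 passed the filter, and 12 were higher and 0 lower in the libraries labelled TRPM2 KO, where 4.52% of all genes tested were higher and 4.17% lower. At an unadjusted p under 0.05, 4 were lower by limma, by edgeR and by DESeq2, and after adjustment 0 were lower by edgeR and 2 by DESeq2. On reads summed per clone, edgeR called 11, all of them among the 12, and PLXNB2 lost its call. The median log2 fold change was 0.09, against 0.014 over all genes tested. By role, 5 plexins, 2 semaphorins, 2 Eph receptors, 1 ephrin, 1 netrin and 1 neuropilin were called. For 14 of the 55 the groups did not overlap, 12 higher and 2 lower, as for 13.2% of all genes tested. Of the genes called, 8 were called in both treatments, SEMA3A among them, which is 72.7% of the 11 without treatment and 66.7% of the 12 with doxorubicin. SEMA3A passed both filters only through the libraries labelled TRPM2 KO, so its place in these counts and shares carries no weight. The others called in both treatments were EPHA2, EPHB4, NRP1, PLXNA2, PLXNA4, PLXNB2 and PLXNC1. Of all genes called higher, 216 were called in both treatments, 65.5% and 32.8% of those in each. The 2 comparisons share no library, but they share their 4 clones.

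SEMA3A had 5.18 and 2.77 normalized CPM in doxorubicin-treated KO11 and 3.40 and 2.15 in KO28, and 0.119, 0.379, 0 and 0.454 in Scr13 and Scr16. As without treatment, it reached 1 normalized CPM in the libraries labelled TRPM2 KO alone, so that its call carries no weight. The groups did not overlap. SEMA3E, another secreted semaphorin of chromosome 7 (83363238 to 83649113), was too low to be tested. It had 0.512, 0.504, 0.916 and 1.38 normalized CPM in the doxorubicin-treated libraries of KO11 and KO28 and 0 in those of Scr13 and Scr16, at least 3.9-fold higher when the Scr libraries are set at the floor of 3 reads per library. This gene was singled out after its values were seen. SEMA3C averaged 120 ± 22.3 normalized CPM (SD, n = 4) against 67.7 ± 26.6, and the groups overlapped at 102 in Scr16 replicate 1 (log2 fold change 0.89, adjusted p = 0.00335, limma). Its adjusted p was 0.0824 with DESeq2 and, without clone KO28, 0.0523 with limma.

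NRP1 was at 16.4 and 16.4 normalized CPM in KO11, 23.3 and 16.5 in KO28, 6.47 and 4.48 in Scr13 and 11.6 and 5.58 in Scr16. The groups did not overlap, with a log2 fold change of 1.31 (SE 0.23, adjusted p = 4.17e-04, limma). PLXNC1 averaged 12.7 ± 1.60 normalized CPM (SD, n = 4) against 5.95 ± 1.38, PLXNA2 952 ± 146 against 580 ± 105 and PLXNA4 800 ± 84.8 against 512 ± 63.0, with log2 fold changes of 1.00, 0.72 and 0.64 (adjusted p = 0.0021, 1.64e-04 and 4.69e-05, limma). PLXNA3 averaged 135 ± 14.9 against 97.7 ± 7.12 normalized CPM (log2 fold change 0.45, adjusted p = 0.00143, limma), and it overlaps LAGE3 on the opposite strand of chromosome X, which had a log2 fold change of 0.01. PLXNA3 lost its call without clone KO28 (adjusted p = 0.0584, limma), and PLXNC1 without clone KO11 (adjusted p = 0.117, limma). PLXNB2 averaged 782 ± 54.3 against 618 ± 105 (log2 fold change 0.35, adjusted p = 0.0252, limma). The call of PLXNB2 was lost without KO11 replicate 1, without either library of Scr16 or without either library of KO28, with adjusted p between 0.0509 and 0.101 (limma), and on reads summed per clone edgeR gave 0.0906. Its log2 fold change was 0.14 without clone Scr16.

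EPHB4 averaged 38.8 ± 2.59 normalized CPM (SD, n = 4) against 20.1 ± 4.36, and EPHA2 89.4 ± 9.58 against 54.2 ± 10.5. Neither gene's groups overlapped, and the log2 fold changes of 0.94 and 0.73 (adjusted p = 1.2e-04 and 2.32e-04, limma) stayed past the threshold under all 22 alternatives. EFNB1, a transmembrane ephrin, had 47.7 and 33.5 normalized CPM in KO11, 36.2 and 34.6 in KO28, 27.6 and 30.98 in Scr13, and 15.3 and 24.4 in Scr16. The groups lay close, and Scr16 was lower than Scr13. Its log2 fold change was 0.64 (SE 0.17, adjusted p = 0.0179, limma), its adjusted p was 0.10 without KO11 replicate 1, and its log2 fold change was 0.35 without clone Scr16. NTN4, a secreted netrin that binds laminins, had 4.93 and 5.23 normalized CPM in KO11 and 4.58 and 7.65 in KO28, against 1.37 and 1.77 in Scr13 and 0 and 1.75 in Scr16. No Scr library reached the lowest library labelled TRPM2 KO, and the log2 fold change was 1.66 (SE 0.32, adjusted p = 0.00119, limma).

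UNC5D, called without treatment, had 4.42, 3.78, 2.29 and 0.299 normalized CPM in doxorubicin-treated KO11 and KO28 and 1.48, 0.126, 0 and 0.909 in the Scr libraries, which overlapped (log2 fold change 1.09, adjusted p = 0.110, limma). NRP2 and EPHA8 also missed the threshold, with log2 fold changes of 0.81 and 0.58 (adjusted p = 0.130 and 0.0991, limma). For SEMA4D, a ligand of plexin-B1, and NTNG2, a membrane-anchored netrin, the 4 libraries labelled TRPM2 KO were all below the 4 Scr libraries. Their means of 48.7 against 58.2 and 43.2 against 55.4 normalized CPM missed the threshold (adjusted p = 0.12 and 0.0794, limma).

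**Figure D3:**
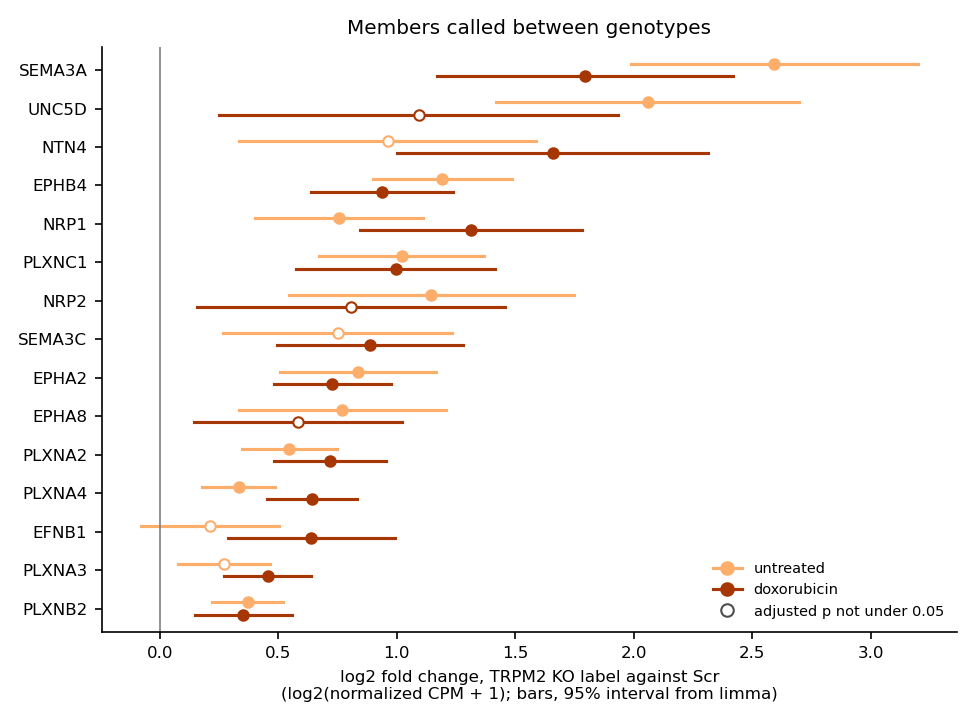
Log2 fold change of the libraries labelled TRPM2 KO against Scr, on log2(normalized CPM + 1), untreated and with doxorubicin, for the 15 guidance genes called in either treatment. Bars are 95% intervals from limma and open points missed the threshold; the point estimates are above 0 for all 15 genes in both treatments, the interval of EFNB1 without treatment includes 0, and SEMA3A entered both fits only through the libraries labelled TRPM2 KO.

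**Figure D4:**
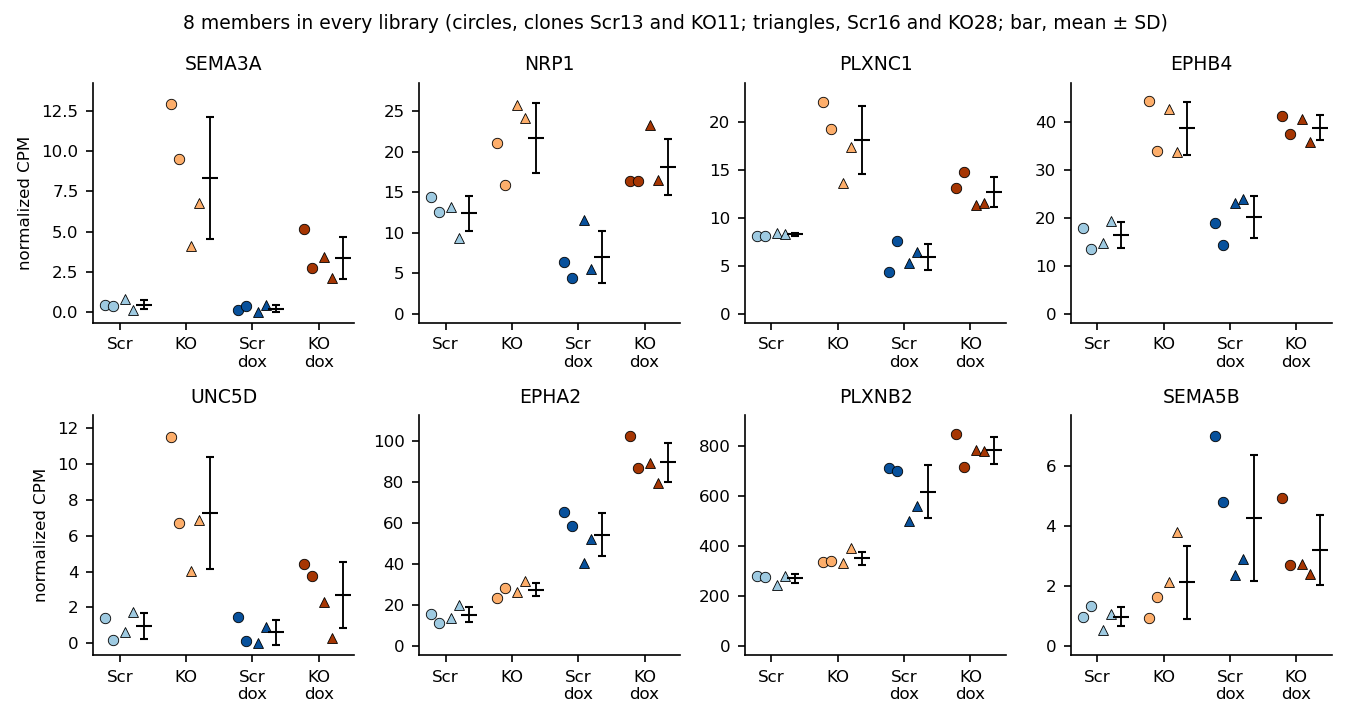
Normalized CPM of SEMA3A, NRP1, PLXNC1, EPHB4, UNC5D, EPHA2, PLXNB2 and SEMA5B in each library, by genotype label and treatment, with the mean and SD of 4 libraries beside the points. SEMA3A stays under 0.86 in all 8 Scr libraries, and EPHA2 and PLXNB2 are higher with doxorubicin in every clone.

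Mesenchymal markers also differed between the genotypes. Of the 12 markers tested, 8 were higher and 1, TWIST1, lower by limma in KO11 and KO28 together without treatment, where 2.3% of all genes tested were higher and 2.54% lower. Without treatment edgeR had 7 higher and DESeq2 5, each with 1 lower. With doxorubicin 10 of 12 were higher and TWIST1 lower by limma, where 4.52% and 4.17% of all genes were. There edgeR had 10 higher and DESeq2 9, each with 1 lower. Of those higher by limma, DCN without treatment and DCN and LUM with doxorubicin reached 1 normalized CPM in no Scr library, so they passed the filter only through the libraries labelled TRPM2 KO and their calls carry no weight. VIM averaged 369 normalized CPM against 188 without treatment and 376 against 168 with doxorubicin, and the collagen gene COL3A1 175 against 55.4 and 189 against 35.1. None of the 14 measured was at 0 in every library. Of the 13 adrenergic markers tested, against these same shares of all genes, limma had 3 higher and 1 lower without treatment, and 2 higher and 1 lower with doxorubicin. With edgeR the counts were the same, and DESeq2 had as many higher but 2 lower in each treatment. Of the 4 Schwann-like markers, 2 were tested and 0 called by limma, edgeR or DESeq2. At an unadjusted p under 0.05, each tool had 1 of them lower without treatment, and with doxorubicin limma had 0 and edgeR and DESeq2 each had 1 lower. The part of these markers in the differences of the guidance genes was not tested. Without untreated Scr13 replicate 1, whose mesenchymal sum was high, 12 guidance genes were called without treatment, where 3.74% of all genes tested were called, against 11 and 4.84% with it. Leaving out any 1 untreated library gave 8 to 12 calls, so this was the highest count. Without clone Scr16, 6 were called, where 2.34% of all genes tested were. These fits do not test the part of the markers.

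Other genes of the same pathways were examined from a list of 62, of which 61 were measured. Without treatment, 6 of the 59 tested were higher and 1 lower in the libraries labelled TRPM2 KO, where 2.3% of all genes tested were higher and 2.54% lower. MYO10, a motor that carries DCC into filopodia, averaged 11.6 ± 3.12 normalized CPM (SD, n = 4) against 3.83 ± 1.07, and FLRT3, a ligand of UNC5 receptors, 4.04 ± 1.49 against 0.991 ± 0.449. DSCAM, another netrin receptor, averaged 2.83 ± 1.04 against 0.484 ± 0.252. It passed the filter only through the libraries labelled TRPM2 KO, so its place among the 6 carries no weight. DPYSL3, a collapsin response mediator that acts downstream of class 3 semaphorins, averaged 116 against 52.1. The log2 fold changes were 1.38, 1.32, 1.33 and 1.23. The gene that was lower was SIPA1L1, an effector of Eph receptors (52.2 against 66.8 normalized CPM).

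With doxorubicin, 9 of the 56 tested were higher and 0 lower by limma, where 4.52% and 4.17% of all genes tested were. At an unadjusted p under 0.05, 6 were lower by each of limma, edgeR and DESeq2, and after adjustment 0 by edgeR and 4 by DESeq2. MYO10 and FLRT3 were again higher (log2 fold change 1.71 and 1.34), as was DRAXIN, a secreted repellent that binds netrin-1 and DCC, at 63.3 ± 11.9 normalized CPM (SD, n = 4) against 23.8 ± 7.16 (log2 fold change 1.40). MICAL2, of the actin-oxidizing MICAL family that acts below plexins, averaged 9.52 ± 2.05 against 1.42 ± 0.686 (log2 fold change 2.14). The pathway genes named here for the genotype comparisons had adjusted p under 0.05 with limma, and that of DSCAM carries no weight.

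The next comparison asked how the guidance genes responded to doxorubicin in each genotype. In the Scr clones 51 were tested, 11 were higher and 1 lower with doxorubicin, where 6.67% of all genes tested were higher and 4.94% lower. In the clones labelled TRPM2 KO 54 were tested, 17 were higher and 4 lower, where 10.1% were higher and 7.38% lower. With the clone and the replicate number as a block, 19 genes were called in the Scr clones and 23 in those labelled TRPM2 KO, and on reads summed per clone 15 and 14, where 7 of the calls in the clones labelled TRPM2 KO were lost. The median log2 fold changes were 0.22 and 0.13, against -0.012 and 0.015 over all genes tested. In the Scr clones the genes that rose were 5 semaphorins, 4 plexins, 1 ephrin and 1 Eph receptor, and in the clones labelled TRPM2 KO they were 6 semaphorins, 5 plexins, 2 ephrins, 2 netrins, 1 Eph receptor and 1 netrin receptor. A total of 9 rose in both, 81.8% of those in the Scr clones and 52.9% of those in the clones labelled TRPM2 KO, where 631 of all genes tested rose in both, 65.8% and 43.0% of those in each. These 2 comparisons share neither libraries nor clones.

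EPHA2 rose most among the genes called in both genotypes. It went from 15.8 and 11.3 normalized CPM in untreated Scr13 and 13.8 and 19.99 in Scr16 to 65.4 and 58.5 and to 40.6 and 52.3, and from 23.7 and 28.5 in KO11 and 26.5 and 31.7 in KO28 to 102 and 86.7 and to 89.1 and 79.5. Treated and untreated libraries did not overlap in either genotype. The log2 fold change was 1.77 (SE 0.16, adjusted p = 1.33e-06, limma) in the Scr clones and 1.66 (SE 0.11, adjusted p = 5.91e-11) in the clones labelled TRPM2 KO. EPHA2 (ENSG00000142627) lies on the - strand of chromosome 1 from 16124337 to 16156087. The treated libraries labelled TRPM2 KO reached the highest level of the gene, since it was higher there in both treatments.

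Of the 3 B-type plexins, PLXNB2 and PLXNB3 rose in both genotypes and PLXNB1 in neither. PLXNB2 had 282, 278, 244 and 281 normalized CPM in untreated Scr13 and Scr16 and 713, 699.8, 500.5 and 560 with doxorubicin, and it went from 338, 341, 333 and 391 in KO11 and KO28 to 849, 716, 784 and 780. Every treated library was above every untreated one, and the treated libraries of Scr13 were above those of Scr16. The log2 fold changes were 1.17 and 1.16 (adjusted p = 3.23e-07 and 8.37e-11, limma). PLXNB3 averaged 22.0 ± 2.40 normalized CPM (SD, n = 4) in the untreated Scr libraries and 47.9 ± 8.59 with doxorubicin, and 22.7 ± 4.07 and 51.3 ± 4.61 in those labelled TRPM2 KO, log2 fold changes of 1.07 and 1.15 (adjusted p = 3.3e-05 and 2.99e-07, limma). PLXNB1 had log2 fold changes of 0.24 and 0.19 (adjusted p = 0.167 and 0.225, limma). EPHA2, PLXNB2 and PLXNB3 kept these calls under all 20 alternatives in each genotype. PLXNA3 rose from 77.2 ± 9.47 to 135 ± 14.9 normalized CPM in the clones labelled TRPM2 KO (log2 fold change 0.80, adjusted p = 1.62e-06, limma).

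The DNA just before the starts of these genes is shown because EPHA2, PLXNB2 and PLXNB3 had the steepest rises among the genes called in both genotypes. These are the 250 bases before the RefSeq start in GRCh38.p14, 5′ to 3′ on the strand of the gene, and capitals mark the GC box GGGCGG or its reverse complement CCGCCC. For PLXNB2 the RefSeq start lies 5958 bases inside the gene as GENCODE draws it, whose start is at 50307627, so that its window is not the DNA before the GENCODE start.
EPHA2 (chr1:16156070-16156319, - strand): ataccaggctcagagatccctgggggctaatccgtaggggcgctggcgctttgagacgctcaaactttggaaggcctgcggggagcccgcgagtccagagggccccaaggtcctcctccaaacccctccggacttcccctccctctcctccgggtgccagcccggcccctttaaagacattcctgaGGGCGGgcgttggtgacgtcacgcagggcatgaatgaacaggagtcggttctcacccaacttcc
PLXNB2 (chr22:50301670-50301919, - strand): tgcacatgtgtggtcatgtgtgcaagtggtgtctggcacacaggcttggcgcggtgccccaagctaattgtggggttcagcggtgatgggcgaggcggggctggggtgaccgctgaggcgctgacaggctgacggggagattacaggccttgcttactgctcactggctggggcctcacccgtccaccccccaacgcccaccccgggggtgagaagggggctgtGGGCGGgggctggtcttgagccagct
PLXNB3 (chrX:153763999-153764248, + strand): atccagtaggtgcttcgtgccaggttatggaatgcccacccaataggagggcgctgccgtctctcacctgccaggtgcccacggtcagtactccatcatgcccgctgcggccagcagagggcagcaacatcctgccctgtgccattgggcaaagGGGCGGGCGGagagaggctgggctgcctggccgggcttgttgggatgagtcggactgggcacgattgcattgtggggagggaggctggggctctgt

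Each of these windows held a GC box, in PLXNB3 as 2 overlapping copies, as did 69.7% of the 76 windows found for 50 of the guidance genes and 42.6% of the 35116 windows of all genes. The p53 half-site, searched by its consensus on both strands, was in none of the windows of EPHA2, PLXNB2 and PLXNB3. It was in 3 windows of the guidance genes (3.95%), and in 5.57% of all windows. Those 3 belong to SEMA3F, SEMA5B and NTN4, each of which was called higher with doxorubicin in at least 1 genotype, as were 18 of the 50 genes with a window. SEMA3F and SEMA5B have 3 windows each and NTN4 has 2, and only 1 window of each gene held the half-site. A link between the half-site and the calls was not tested. The 3 windows are shown as 70 bases with the half-site in capitals.
SEMA3F (chr3:50154830-50154899, + strand): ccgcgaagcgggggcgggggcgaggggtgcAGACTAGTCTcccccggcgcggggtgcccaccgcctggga
SEMA5B (chr3:123028637-123028706, - strand): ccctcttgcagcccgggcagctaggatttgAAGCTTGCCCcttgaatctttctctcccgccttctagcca
NTN4 (chr12:95791197-95791266, - strand): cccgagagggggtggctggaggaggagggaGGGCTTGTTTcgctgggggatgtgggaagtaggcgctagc

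SEMA3F, a secreted semaphorin that acts through NRP2, had 9.96, 8.58, 6.75 and 11.6 normalized CPM in untreated Scr13 and Scr16 and 12.9, 20.4, 21.8 and 15.1 with doxorubicin. In the clones labelled TRPM2 KO it went from 7.55, 6.26, 9.72 and 8.17 to 19.9, 19.3, 13.3 and 14.05, with the treated libraries of KO11 above those of KO28. The log2 fold changes were 0.85 and 0.98 (adjusted p = 0.00883 and 5.18e-04, limma), and without clone KO11 the second was 0.56 (adjusted p = 0.285). The call in the Scr clones was lost without clone Scr13 or clone Scr16 (adjusted p = 0.151 and 0.0911, limma) and with no filter (0.0623). SEMA5B, a transmembrane semaphorin that binds A-type plexins, went from 0.984, 1.32, 0.552 and 1.08 to 7.01, 4.79, 2.38 and 2.92 normalized CPM in Scr13 and Scr16 (log2 fold change 1.34, adjusted p = 0.00642, limma). In the clones labelled TRPM2 KO it went from 0.937, 1.63, 2.15 and 3.79 to 4.93, 2.71, 2.75 and 2.39, which overlapped, with a log2 fold change of 0.47 (95% interval -0.13 to 1.06) that missed the threshold. The transmembrane semaphorins SEMA6C and SEMA4G averaged 61.0 ± 12.3 against 38.4 ± 4.01 and 45.6 against 28.7 normalized CPM in the Scr libraries (log2 fold change 0.64 for both, adjusted p = 0.00265 and 0.00154, limma), and both calls were lost without clone Scr13 (adjusted p = 0.22 and 0.209). In the libraries labelled TRPM2 KO, SEMA4G was called at 50.2 against 31.7 normalized CPM (log2 fold change 0.64, adjusted p = 1.9e-04, limma). SEMA6C missed the threshold there (log2 fold change 0.32, adjusted p = 0.0630, limma). SEMA4A, also transmembrane, averaged 2.98 against 1.20 normalized CPM in the libraries labelled TRPM2 KO (log2 fold change 0.93, adjusted p = 0.0278, limma). The call of SEMA4A was lost without either treated library of KO11, without untreated KO28 replicate 2 or without either treated library of KO28, with adjusted p between 0.0524 and 0.0809 (limma). SEMA4G overlaps MRPL43 on the opposite strand of chromosome 10, and MRPL43 had log2 fold changes of -0.02 and 0.04.

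Of the ephrins, members of the B type rose. EFNB2, the ligand of EPHB4, averaged 93.1 ± 12.4 against 55.2 ± 9.42 normalized CPM (SD, n = 4) in the Scr libraries (log2 fold change 0.75, adjusted p = 3.65e-04, limma). It also rose in those labelled TRPM2 KO, to 101 against 66.5 (log2 fold change 0.61, adjusted p = 1.33e-04, limma). EFNB1 averaged 38.0 ± 6.58 against 19.2 ± 2.65 in the libraries labelled TRPM2 KO (log2 fold change 0.94, adjusted p = 2.04e-05, limma). In the Scr clones EFNB1 had a log2 fold change of 0.51 (adjusted p = 0.0670, limma). EFNB3, the most abundant ephrin, was not called in either genotype. Among the netrins, NTN4 averaged 5.596 ± 1.396 against 2.92 ± 1.54 normalized CPM in the libraries labelled TRPM2 KO (log2 fold change 0.81, adjusted p = 0.0361, limma). The call of NTN4 was lost without any one of the 4 libraries of KO11, without untreated KO28 replicate 2 or without treated KO28 replicate 2, with adjusted p between 0.0622 and 0.129 (limma).

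Of the guidance genes tested, 1 of 51 fell in the Scr clones, where 4.94% of all genes tested fell. In the clones labelled TRPM2 KO 4 of 54 fell, where 7.38% of all genes did. At an unadjusted p under 0.05, 5 and 7 were lower by limma, 5 and 6 by edgeR, and 6 and 7 by DESeq2. After adjustment edgeR had 0 and 5 lower, and DESeq2 1 and 4. In the Scr clones NRP1 went from 14.5, 12.6, 13.2 and 9.43 normalized CPM to 6.47, 4.48, 11.6 and 5.58 (log2 fold change -0.80, adjusted p = 0.0338, limma), and the value of 11.6 in Scr16 overlapped the untreated libraries. This call was lost in the fits without either untreated library of Scr13, either treated library of Scr13, untreated Scr16 replicate 1 or treated Scr16 replicate 2, with adjusted p between 0.0725 and 0.106 (limma), and edgeR's quasi-likelihood test gave 0.0503. In the clones labelled TRPM2 KO, UNC5D averaged 2.70 ± 1.83 against 7.27 ± 3.11 normalized CPM (SD, n = 4), SEMA3A 3.38 ± 1.31 against 8.32 ± 3.77, EFNA5, an ephrin anchored to the membrane by a lipid, 15.3 ± 3.53 against 24.7 ± 6.73, and PLXNA1 203 against 276. The log2 fold changes were -1.27, -1.04, -0.64 and -0.44 (adjusted p = 0.0114, 0.010, 0.0114 and 2.5e-04, limma). PLXNA1 had no overlap between treated and untreated libraries, and the other genes did. SEMA3A lost its call without untreated KO11 replicate 1 (adjusted p = 0.0527, limma) and EFNA5 without untreated KO28 replicate 1 (adjusted p = 0.0590, limma), and DESeq2 gave UNC5D an adjusted p of 0.156. SEMA3A and UNC5D were too low to be tested in the Scr clones.

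**Figure D5:**
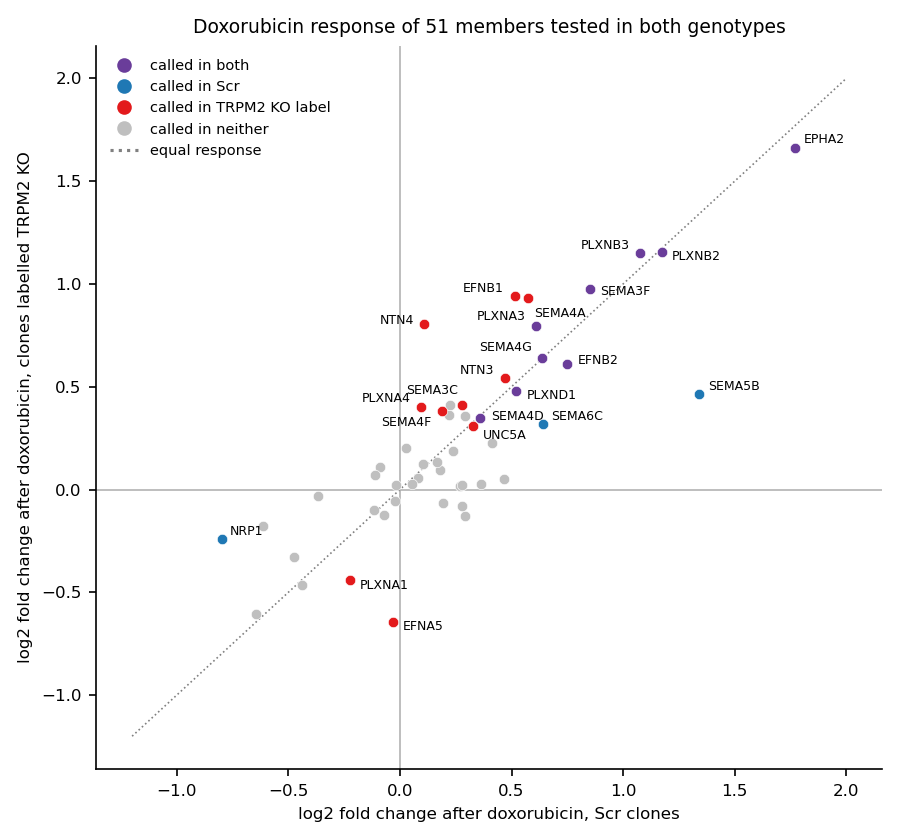
Log2 fold change with doxorubicin in the Scr clones (horizontal axis) and in the clones labelled TRPM2 KO (vertical axis), on log2(normalized CPM + 1), for the 51 guidance genes tested in both. EPHA2, PLXNB2 and PLXNB3 lie at the upper right near the line of equal response, while SEMA5B lies below it and NTN4 above it, and the axes share no library.

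An interaction term, fitted over the 16 libraries, tested whether the response to doxorubicin differed between genotypes. Of the 56 guidance genes tested, 0 were called by limma, where 0.0196% of all genes tested were called, and 0 by edgeR's quasi-likelihood test or DESeq2. At an unadjusted p under 0.05, limma had 3 of the 56 (PLXNA4, EFNA5 and SEMA5B), and edgeR and DESeq2 each had 4. PLXNA4 had an interaction of 0.31 on the log2 scale (95% interval 0.06 to 0.56, adjusted p = 0.564, limma), EFNA5 of -0.61 (-1.11 to -0.12) and SEMA5B of -0.88 (-1.74 to -0.02, adjusted p = 0.657). For NRP1 it was 0.56 (-0.04 to 1.16) and for NTN4 0.70 (-0.22 to 1.61). Genes called in 1 genotype alone are therefore not shown to respond differently in the other.

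Among the other genes of these pathways, 6 of 58 rose and 0 fell with doxorubicin in the Scr clones, where 6.67% of all genes tested rose and 4.94% fell. In those labelled TRPM2 KO, 10 of 59 rose and 8 fell, where 10.1% and 7.38% of all genes did. At an unadjusted p under 0.05, 8 were lower in the Scr clones by limma and by DESeq2 and 6 by edgeR, and after adjustment 0 were lower by edgeR and 3 by DESeq2. DRAXIN rose most, from 4.86 ± 1.01 to 23.8 ± 7.16 normalized CPM (SD, n = 4) in the Scr libraries and from 11.3 ± 0.924 to 63.3 ± 11.9 in those labelled TRPM2 KO (log2 fold change 2.06 and 2.37). RGMA, a ligand of neogenin, and CNTN2, an adhesion protein of axons, rose in both (log2 fold change 1.55 and 0.88 in the Scr clones, 1.21 and 1.25 in the others). RRAS, a small GTPase that plexins switch off, rose in the Scr clones from 4.65 to 9.0 normalized CPM. LRRC4, the partner of NTNG2 at synapses, fell from 13.8 ± 3.59 to 4.91 ± 0.974 normalized CPM in the clones labelled TRPM2 KO (log2 fold change -1.31, adjusted p = 6.3e-05, limma). The interaction called 0 of the 60 pathway genes tested by limma, edgeR or DESeq2, and 3 had an unadjusted p under 0.05 by each.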

How the data were processed

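RNA was sequenced by the authors from 16 libraries, 4 in each of 4 groups, grouped by their labels. The submitters' processing notes name bcl2fastq, HISAT2 2.1.0, HTSeq, edgeR and GRCh38. The use of strand and the annotation are not given in the sources used here. The authors deposited, per library, a signal that is a read count scaled to a normalized library size (normalized CPM), and 0 columns of library values were left unassigned. The tables also hold the fold changes, p-values and q-values of the authors' own comparisons, which were not used.

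Whole reads were recovered for 100% of the values (tolerance 0.01 reads, largest deviation 5.39e-05). The normalization factors lay between 0.974 and 1.03, with a geometric mean of 1.00 over the 16 libraries, so that treated and untreated libraries were compared on 1 scale. Symbols were found for 95.0% of the identifiers and GENCODE 29 positions for 95.9%.

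Groups were compared with limma 3.58.1 (R 4.3.3) on log2(normalized CPM + 1) with an abundance trend, for genes reaching 1 normalized CPM in 4 or more libraries of a fit, with Benjamini-Hochberg adjustment over all genes tested and a threshold of 0.05. Tests were two-sided. A fold change on this scale understates the change of low genes. For each comparison, the main limma fit and edgeR's quasi-likelihood test were first run on simulated reads. Those libraries were simulated as independent, with no clone effect, so the sharing of clones was not checked. The fits were repeated without the filter, with a minimum of 10 reads per library, with pseudocounts of 0.1 and 0.5, with edgeR 4.0.16 and DESeq2 1.42.0 on recovered reads, on reads summed per clone, with blocks, and with each library and clone left out. Both libraries of a clone share that clone and differed by more than counting noise (chi-square per gene 7.79 to 16.9), so p-values measure the spread between these libraries.

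The genes and lists were chosen with earlier results of these data known, and the promoter motifs with the windows in view. Named are all genes called between genotypes, the 8 largest rises and falls with doxorubicin in each genotype, the highest gene of each role, and the label checks. SEMA3E, SEMA3G, SEMA4D, SEMA4F, UNC5A, UNC5C, UNC5CL, NEO1, DCC, EPHB1, PLXNB1, NTN1, NTN5 and NTNG2, and SIPA1L1 among the pathway genes, were described outside this rule, with their values already seen. Promoter windows are those of RefSeq. The values of 1 adrenergic marker are not reported here.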

Additional observations from a re-analysis of the deposited data

Results flagged for a closer look

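In 108 groups of 4 libraries, for 27 of the guidance genes, 6 libraries lay far from the other 3 of their group by Dixon's criterion, which chance meets in about 1 in 20 groups. PLXNB2 was at 243.7 normalized CPM in untreated Scr16 replicate 1, below the 278 to 281.7 of the other Scr libraries. It was at 391 in untreated KO28 replicate 2, above the 333.1 to 341.2 of the others. NRP1 was at 23.35 normalized CPM in doxorubicin-treated KO28 replicate 1, against 16.38 to 16.5. EFNB1 was at 23.2 in untreated KO28 replicate 1, against 17.58 to 18.16. SEMA5B was at 4.927 in doxorubicin-treated KO11 replicate 1, against 2.391 to 2.747. EFNA5 was at 20.57 in doxorubicin-treated KO28 replicate 2, against 13.05 to 13.8.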

How the results depend on the processing

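No result reversed. Of 44 values of named guidance genes, 21 kept their call in every fit that tested them and 23 lost it in at least 1. The 21 include the calls of SEMA3A in both genotype comparisons, which carry no weight. SEMA3A could be tested in 15 of 22 alternatives in each genotype comparison, since it dropped below the filter whenever a library or clone labelled TRPM2 KO was left out or 10 reads were required in every library. Between genotypes without treatment, 11 genes were called, and 6 with no filter or without clone Scr16. With doxorubicin, 12 were called, and 7 without clone KO28. Between treatments, the 12 calls in the Scr clones became 5 without clone Scr13, and the 21 in the clones labelled TRPM2 KO became 13 with no filter and 11 without clone KO11. Leaving out 1 library at a time gave 8 to 12 and 9 to 15 calls between genotypes, 10 to 14 and 15 to 22 between treatments, and 0 to 0 for the interaction. Same-numbered libraries of the 2 genotypes share only a number (correlation of deviations 0.06 and 0.0799), and with the number as a replicate block 12 genes were called in each treatment. Untreated and treated libraries share their clones. With the clone as a replicate block 12 and 22 genes were called between treatments, with clone and number 19 and 23. On reads summed per clone edgeR called 10 and 11 genes between genotypes, where NRP2 and EPHA8 untreated and PLXNB2 with doxorubicin lost their calls, and 15 and 14 between treatments, where SEMA4A, SEMA4D, SEMA4F, NTN3, NTN4, UNC5A and UNC5D lost theirs in the clones labelled TRPM2 KO (adjusted p between 0.0551 and 0.119). Among the 44 values, the calls lost with no filter, with adjusted p between 0.054 and 0.192, were those of PLXNA2, PLXNA4, NRP1, NRP2 and EPHA8 between untreated genotypes, PLXNB2, EFNB1 and SEMA3C between treated ones, SEMA5B, SEMA3F and NRP1 with doxorubicin in the Scr clones, and SEMA4A, NTN4, UNC5D, SEMA3A and EFNA5 in the others. In the clones labelled TRPM2 KO, calls outside these 44 values were lost as well. Leaving out a clone also ended the untreated genotype calls of EPHA8 (without KO28, Scr13 or Scr16) and NRP2 (KO11 or Scr16), the treated ones of PLXNB2 and EFNB1 (KO11, KO28 or Scr16), and the doxorubicin calls of NRP1 (Scr13), SEMA4A (KO28), NTN4 (KO11 or KO28) and SEMA3A (KO11), with adjusted p between 0.0525 and 0.646. With edgeR on single libraries, SEMA4A and NTN4 missed the threshold with doxorubicin (adjusted p = 0.0951 and 0.083). The interaction stayed at 0. The causes were not tested. NTN1 stayed near the floor, and a difference in it was not detectable at this depth.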
